A study of Homo sapiens with 16 samples.

Results

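The empty vector line PCDNA3 was compared with its parental line A375, both of which served as control cells in a study of catalase overexpression in human melanoma. The 4 arrays of each line, taken by their titles, made 8 of the 16 arrays of the series, and all 33297 transcript clusters, the gene-level probe groups of the Affymetrix Human Gene 1.0 ST array, were compared. The study asked how A375 cells that stably overexpress catalase, as the clones A7 and G10 do, differ from control cells, and it averaged A375 and PCDNA3 cells as its control. The study reported no differentially expressed genes between these controls, without naming the limits for that statement. The question here was whether those 2 controls had the same RNA levels.

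A375 is an established line of amelanotic human melanoma. A375 cells were not transfected. PCDNA3 cells were A375 cells stably transfected with the pcDNA3 plasmid without an insert, and A7 and G10 were A375 cells stably transfected with pcDNA3 carrying human catalase cDNA. Stable transfectants were selected with 1500 µg/ml geneticin and grown with 700 µg/ml, so the plasmid, the transfection, the selection and the antibiotic cannot be told apart in PCDNA3 cells. The labels name no batch of culture, extraction or scan, so a batch that differed between the lines cannot be told apart from the line in any difference below. All cells had the same medium and were subconfluent at RNA extraction. A7 and G10 are each 1 clone obtained by clonal dilution, and whether PCDNA3 cells are a pool or a clone is not given in the sources used here. The study states that replicates were biological, but not from which cultures, and the number of arrays limits the precision.

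pcDNA3 is a mammalian expression plasmid whose resistance gene lets transfected cells grow in geneticin, an aminoglycoside that stops protein synthesis in other cells. An empty vector line of this kind goes through transfection and selection with the plasmid but without the cDNA. Pigment cells make melanin in melanosomes with enzymes and structural proteins whose genes are under the transcription factor MITF. Responses followed here in melanoma cells are the hypoxia response, run by the factor HIF, the interferon response, which turns on antiviral genes, and the NRF2 response, which makes antioxidant enzymes and glutathione.

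The arrays of both lines were alike as a whole. Across clusters, which are no replicates of each other, A375 arrays correlated with each other at r of 0.9900 to 0.9925, PCDNA3 arrays at 0.9902 to 0.9928, and A375 with PCDNA3 arrays at 0.9880 to 0.9918. Olfactory receptors, whose genes are silent in most tissues, set the level of unexpressed genes at 5.18 log2 units, the 95th percentile of their 381 clusters. The lineage label held in both lines. Of the 13 melanoma identity markers measured, all 13 had a mean above it in 1 line or both, and the neural crest factor SOX10 (9.56 in A375 and 9.32 in PCDNA3 cells), the pigment cell regulator MITF (10.49 and 10.09) and the melanoma antigen PRAME (12.07 and 12.22) were high. Markers of other cell types had list means near the level of unexpressed genes, with some members above it. Sums over a list do not show single members. The summed log2 level of 8 keratinocyte markers was 41.7 to 42.9 on A375 and 42.0 to 43.3 on PCDNA3 arrays, with 4 above the level. It was 48.4 to 48.7 and 47.8 to 48.6 for 10 endothelial markers (3 above), 47.3 to 48.1 and 47.5 to 48.3 for 9 leukocyte markers (4 above) and 49.0 to 49.6 and 49.5 to 50.6 for 9 epithelial markers (5 above). The 10 fibroblast markers, 7 of them above the level, summed to 56.6 to 58.0 on A375 and 54.4 to 55.9 on PCDNA3 arrays, a lower range led by PDGFRA (5.92 and 5.26) and LUM (6.32 and 5.72), while DCN and POSTN lay below the level in both lines. The part of such cells in the results was not tested.

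CAT, which encodes catalase, was not part of the empty plasmid. Its level was 8.64, 9.03, 8.64 and 8.62 on the 4 A375 arrays and 8.51, 8.51, 8.53 and 8.71 on the 4 PCDNA3 arrays. The groups overlapped. The mean of CAT was 8.73 ± 0.20 (SD, n = 4) in A375 and 8.56 ± 0.10 (SD, n = 4) in PCDNA3 cells, a difference of -0.17 log2 units with a 95% interval of -0.49 to 0.15 (limma, adjusted p = 0.704). An exact permutation test, two-sided, gave p = 0.114, which was 0.233 after adjustment over 7 genes. GAPDH, the glycolytic enzyme used for normalization in qPCR, differed by -0.03 (95% interval -0.18 to 0.12). The antioxidant enzymes as a list had a median difference of -0.01 over 29 genes. At an unadjusted p under 0.05 in limma 1 was higher and 0 were lower, where 8.15% of all 18417 genes were higher and 7.21% lower, and 0 passed the adjusted limit of 0.05.

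Few clusters passed the adjusted limit in the main fit, though more differed without adjustment. All 4 PCDNA3 values lay above the 4 A375 values in 2084 clusters (6.26%) and below them in 1623 (4.87%). A full split of 4 against 4 arrays, in either direction, has an exact permutation p of 0.0286. In limma over the 16 arrays, 41 clusters or 0.123% of all had a Benjamini-Hochberg adjusted p under 0.05, 15 with a higher and 26 with a lower mean in the empty vector line. With only the 8 arrays of both lines the count was 431, and the balance turned to 234 higher and 197 lower. Of the 41 clusters called over the 16 arrays, 31 carried 1 gene symbol, giving 9 genes that rose and 22 that fell. DAPP1, SH2D1B and TYRP1 led the rises among genes with a level above that of unexpressed genes in at least 1 line. PDK4, ARHGAP20, GRAMD1C, VLDLR, STXBP5L and RGS4 led the falls. The study reported no differential genes between its controls without naming the limits for that statement. Elsewhere it set limits on both the log2 difference and p. Its limit for functional classification, read as a log2 difference of 1 or more and an adjusted p under 0.001, was met by 1 cluster, that of DAPP1. The study does not say whether that p was adjusted, and 37 clusters met the limit at an unadjusted p under 0.001. For listing genes, its figure legend gives a log2 difference of 2 and a p no higher than 1e-04. Read as an adjusted p, that limit was met by 0 clusters in limma. Its methods instead give a p under 0.001 with that log2 difference, for choosing genes for qPCR. At an adjusted p under 0.001, or an unadjusted p of 1e-04 or less, 1 cluster passed, that of DAPP1. In limma 4198 of the 33297 clusters had an unadjusted p under 0.05.

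The small size of the differences was itself measured. The 95% interval of the difference lay within 1 log2 unit of 0 for 94.6% of clusters (31505) and within 0.5 for 68.4% (22760). The measured difference reached 1 in 58 clusters that were higher and 50 that were lower, and the median of all differences was 0.01. By chromosome the median difference over genes ran from -0.035 to 0.049 for 23 chromosomes. The number of called clusters depended on single arrays. It was 2 without A375 replicate 2, 7 without PCDNA3 replicate 1, 12 without A375 replicate 1, 15 without PCDNA3 replicate 4, 20 without A375 replicate 4 and 26 without PCDNA3 replicate 3. With median centring of each array the split was 8 higher and 29 lower.

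**Figure D1:**
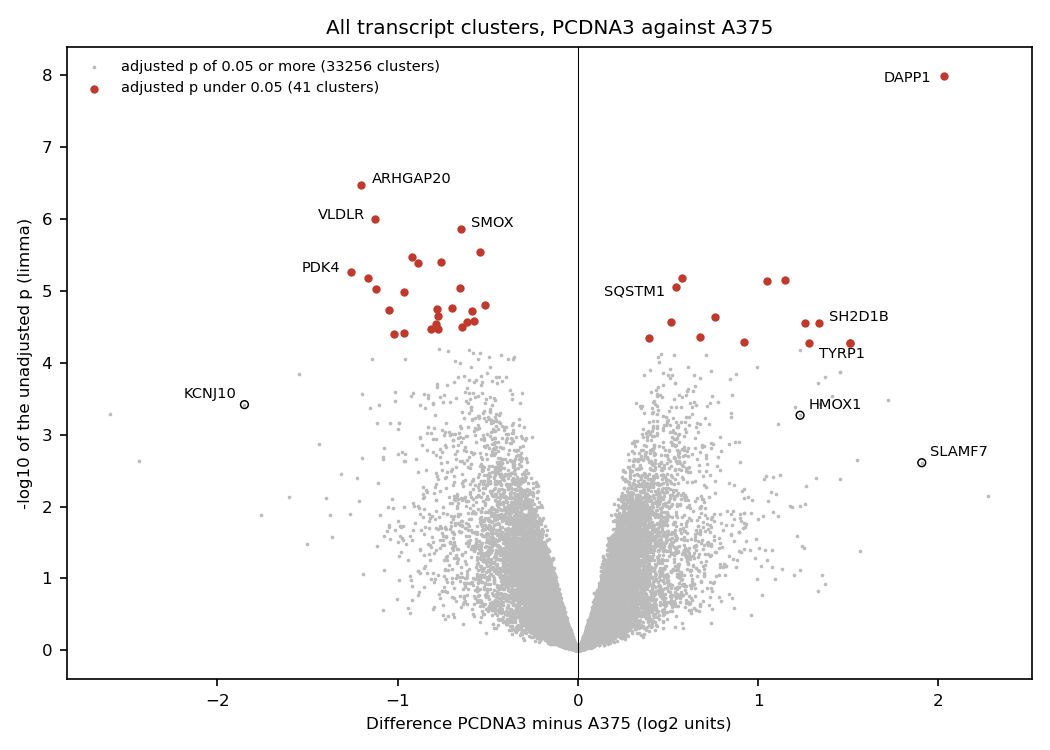
Difference between PCDNA3 and A375 cells (x axis, log2 units) against -log10 of the unadjusted limma p (y axis) for each transcript cluster, with the 41 clusters at an adjusted p under 0.05 in red. DAPP1 stands alone at the top right, and KCNJ10, SLAMF7 and HMOX1 (open circles) had large differences without passing the adjusted limit.

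DAPP1, an adaptor of B cell receptor signalling that binds phosphoinositides, had the clearest difference. Its level was 3.66, 3.08, 3.85 and 3.72 on the A375 arrays and 5.89, 5.53, 5.79 and 5.23 on the PCDNA3 arrays. All A375 values lay below the level of unexpressed genes and all PCDNA3 values above it. DAPP1 therefore rose by at least 0.43 on the log2 scale (2.03 as measured, standard error 0.19, limma adjusted p = 0.00034), and it was called in all 17 alternative fits (adjusted p from 2.87e-05 to 0.0102). In A7 and G10 cells its mean was 3.30 and 3.35, so that every PCDNA3 array exceeded the 12 other arrays of the series, whose highest value was 3.85. SH2D1B, an adaptor of SLAM family receptors in natural killer cells, was 4.62, 4.51, 4.21 and 4.86 on A375 and 5.44, 5.61, 6.54 and 5.96 on PCDNA3 arrays. It rose by at least 0.71 (1.34 as measured, standard error 0.23, limma adjusted p = 0.0322) from below the level. SLAMF7, a receptor of that SLAM family, had a difference of 1.91 with a 95% interval of 0.78 to 3.03, but did not pass (limma adjusted p = 0.138). SLAMF7 was 6.30, 6.76, 6.82 and 6.86 on A375 and 8.89, 7.82, 8.83 and 8.83 on PCDNA3 arrays. The mean of SLAMF7 was 9.14 ± 0.37 (SD, n = 4) in A7 and 6.31 ± 1.55 (SD, n = 4) in G10 cells, and the spread within each of the 4 lines enters the error of the fit.

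TYRP1, which encodes a melanosomal enzyme of melanin synthesis, rose in PCDNA3 cells. TYRP1 was 4.99, 5.49, 5.41 and 5.00 on the A375 arrays and 6.96, 6.31, 5.69 and 7.05 on the PCDNA3 arrays. The groups did not overlap, and replicate 3 of PCDNA3 was the nearest to the A375 arrays. The rise was 1.28 log2 units (standard error 0.23, 95% interval 0.79 to 1.77, limma adjusted p = 0.0432), with an adjusted p of 0.00293 to 0.145 over the 17 alternatives, of which 6 called it. The exact permutation test gave p = 0.0286, the smallest that 4 against 4 arrays allow, or 0.1 after adjustment over 7 genes. The study picked TYRP1 for its level in A7 cells, where its mean was 8.21, against 7.44 in G10 cells. The other pigment genes did not pass. PMEL, the melanosome fibril protein, was 6.87, 7.71, 7.08 and 7.07 on A375 and 9.04, 6.98, 7.44 and 9.35 on PCDNA3 arrays. MLANA, another melanosome protein, was 7.54, 8.49, 7.92 and 7.92 on A375 and 9.04, 7.63, 8.28 and 9.09 on PCDNA3 arrays. Replicates 1 and 4 of PCDNA3 had the highest levels of TYRP1, PMEL and MLANA, and replicates 2 and 3 lay near the A375 arrays for PMEL and MLANA. Over the 21 genes of melanin synthesis and the melanosome the median difference was 0.01, with 3 higher and 2 lower at an unadjusted p under 0.05 in limma, where 8.15% of all genes were higher and 7.21% lower. In a bulk sample, fewer cells with a transcript and less of it per cell cannot be told apart.

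ANKRD27, known as an effector that carries TYRP1 to melanosomes, fell. Its level was 9.53, 9.66, 9.19 and 9.35 on A375 and 8.64, 8.64, 8.70 and 8.65 on PCDNA3 arrays, a difference of -0.78 (standard error 0.13, limma adjusted p = 0.0319). SQSTM1, the autophagy receptor that also holds the NRF2 inhibitor KEAP1, rose by 0.54 (standard error 0.08, limma adjusted p = 0.0198) from 11.54, 11.65, 11.57 and 11.51 to 12.08, 12.09, 12.08 and 12.20. Both groups were tight and far apart on their own scale. SEC61A1, the channel of protein entry into the endoplasmic reticulum, rose by 0.40 from a mean of 10.82 to 11.22, the smallest difference of a called gene. MARS2, the mitochondrial methionyl-tRNA synthetase, rose by 0.52 from a mean of 8.70 to 9.22, while TFB1M, which methylates mitochondrial ribosomal RNA, fell by 0.61 from a mean of 10.15 to 9.54. MAGEA10, a cancer-testis antigen of the X chromosome whose probes may also read related MAGE genes, rose by 0.76 from a mean of 7.35 to 8.12. ACTBL2, an actin-like gene close in sequence to the other actins, and the claudin gene CLDN22, which has a near-identical neighbour, passed as higher with the means of both lines below the level of unexpressed genes, so no size is given for them.

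The genes that fell included receptors, signalling proteins and enzymes. PDK4, the kinase that closes pyruvate dehydrogenase when fatty acids are used, was 8.25, 8.56, 7.77 and 8.17 on A375 and 6.96, 6.40, 7.26 and 7.09 on PCDNA3 arrays. PDK4 fell by 1.26 (standard error 0.19, limma adjusted p = 0.0189). Its mean was 9.27 in A7 and 9.69 in G10 cells, so PCDNA3 cells had the lowest level of the 4 lines. ARHGAP20, a GTPase-activating protein, was 8.04, 7.85, 7.41 and 7.63 on A375 and 6.83, 6.59, 6.20 and 6.51 on PCDNA3 arrays and fell by 1.20 (standard error 0.14, limma adjusted p = 0.00567). Together with DAPP1 it was called in all 17 alternatives, and these were the only 2 of the 31 genes for which this held. VLDLR, a receptor of lipoproteins and reelin, fell by 1.12 from a mean of 7.25 to 6.13 (limma adjusted p = 0.0111).

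Among cell surface and nuclear receptors, IGF1R fell by 0.82 from a mean of 8.31 to 7.50 in the cluster that passed, while its brighter second cluster differed by -0.45 (9.09 and 8.64, limma adjusted p = 0.0905). ROR1, a receptor of Wnt5a, fell by 0.78 from 7.92 to 7.13, the retinoic acid receptor RARG by 0.57 from 8.75 to 8.17 and the scavenger receptor COLEC12 by 0.77 from 7.60 to 6.83. SEMA6D, a membrane-bound semaphorin of axon guidance, fell by 0.89 from 6.72 to 5.84, and SLITRK4, a synaptic adhesion protein, by 0.96 from 6.81 to 5.84. Among signalling proteins, RGS4, which quenches G protein signals, fell by 1.05 from 7.92 to 6.87, PPP3CA, the catalytic subunit of calcineurin, by 0.52 from 9.11 to 8.59, and PLA2G4A, the phospholipase that releases arachidonic acid, by 0.78 from 9.42 to 8.64. SMOX, the spermine oxidase that makes hydrogen peroxide from spermine, fell by 0.65 from 8.73 to 8.08. ADAM9, a membrane protease, fell by 0.58 from 10.71 to 10.12, and the protein myristoyltransferase NMT2 by 0.54 from 8.11 to 7.57. GRAMD1C, a sterol carrier of membrane contacts, fell by 1.16 from 7.49 to 6.33, STXBP5L, a regulator of vesicle fusion, by 1.12 from 6.56 to 5.44, AMN1 by 0.96 from 8.26 to 7.29, and PDLIM3, a protein of the muscle Z disc, by 0.76 from 6.34 to 5.58. BPIFA2, a salivary protein, fell by at least 0.14 (measured -0.66) to a mean below the level of unexpressed genes. All 31 genes had groups that did not overlap, where 6.26% of all clusters had every PCDNA3 value above and 4.87% every PCDNA3 value below the A375 values. The calls were made on the same values, so this is a description and no further support for them.

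**Figure D2:**
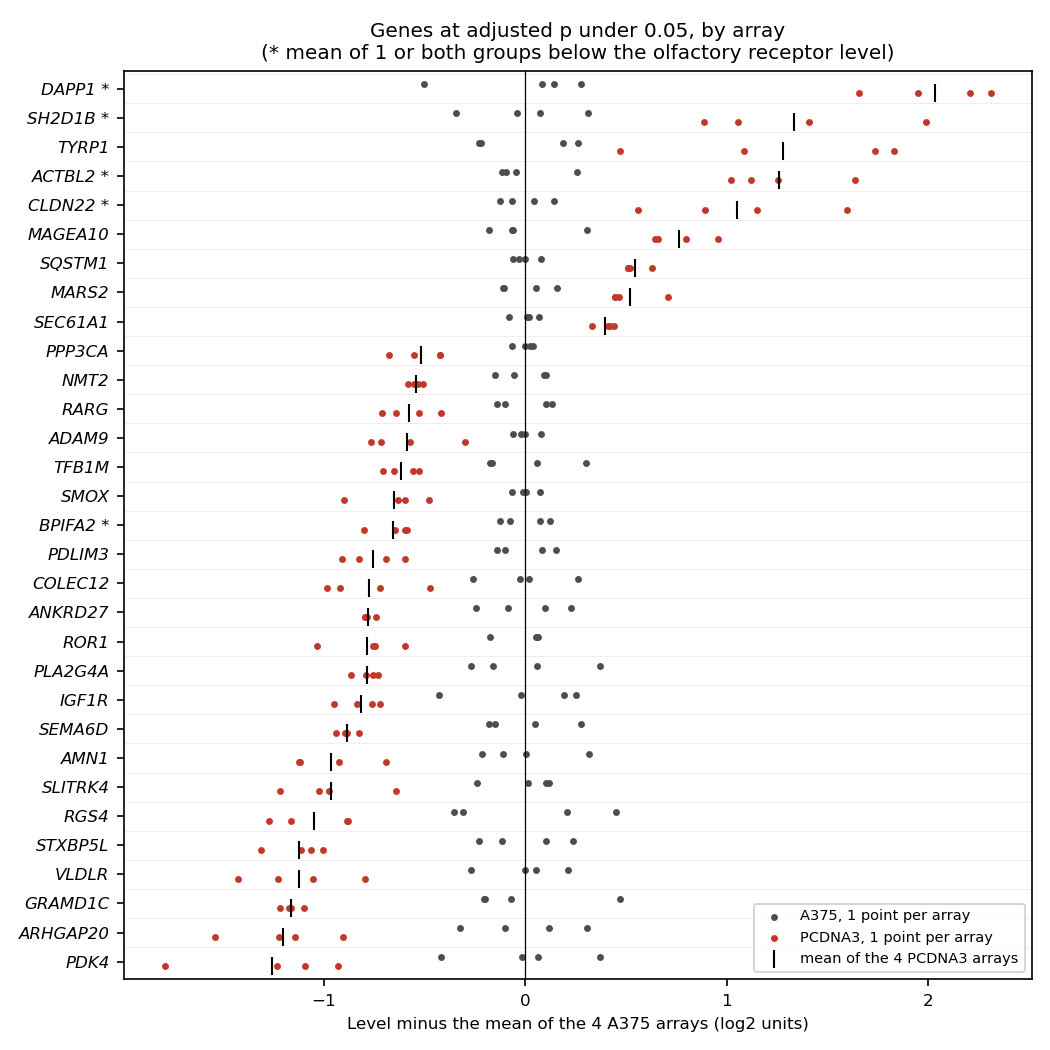
Level of the 31 genes at an adjusted p under 0.05 on each array, as the distance from the mean of the 4 A375 arrays (x axis, log2 units), with A375 arrays in grey, PCDNA3 arrays in red and the PCDNA3 mean as a black bar. In no gene do red and grey points overlap, and the 22 genes that fell lie closer to 0 than DAPP1 does.

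The catalase clones carry the same plasmid backbone and were grown in the same antibiotic, so their levels are given beside these differences. For 12 of the 31 genes the 4 PCDNA3 arrays lay beyond all 12 other arrays. They lay above for DAPP1, SQSTM1, SH2D1B, MARS2 and CLDN22, 5 genes in all, where 0.586% of all clusters did so. They lay below for PDK4, SLITRK4, PPP3CA, RGS4, ADAM9, ANKRD27 and IGF1R, 7 genes, against 0.796% of all clusters. The calls used the same PCDNA3 arrays, so these shares are a description. For each of the other called genes at least 1 array of A375, A7 or G10 cells was at or past a PCDNA3 value. SQSTM1 and MARS2 were also higher in A7 than in A375 cells. SQSTM1 was 11.93 to 12.04 on the A7 arrays, against 11.51 to 11.65 on A375 and 12.08 to 12.20 on PCDNA3 arrays. MARS2 was 8.92 to 9.12 on the A7 arrays, against 8.59 to 8.86 and 9.15 to 9.41. COLEC12 was 7.60 in A375, 6.83 in PCDNA3, 6.66 in A7 and 5.80 in G10 cells, and ARHGAP20 was 7.74, 6.53, 7.09 and 5.20. MTSS1, an actin-binding protein that the study picked for its level in G10 cells, was 8.04, 8.45, 7.23 and 7.56 on A375 and 7.12, 6.80, 6.86 and 7.15 on PCDNA3 arrays. MTSS1 differed by -0.84 (95% interval -1.28 to -0.40, limma adjusted p = 0.0994; exact permutation p = 0.0286, or 0.1 after adjustment) and had a mean of 5.39 in G10 cells. The other genes the study picked were TIAM1, an exchange factor of Rac, with a difference of -0.18 (limma adjusted p = 0.599), the ubiquitin hydrolase UCHL1 with -0.25 (limma adjusted p = 0.713), and the neural adhesion gene CNTN1, which was below the level of unexpressed genes in both lines (means of 4.08 and 3.75, limma adjusted p = 0.847).

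**Figure D3:**
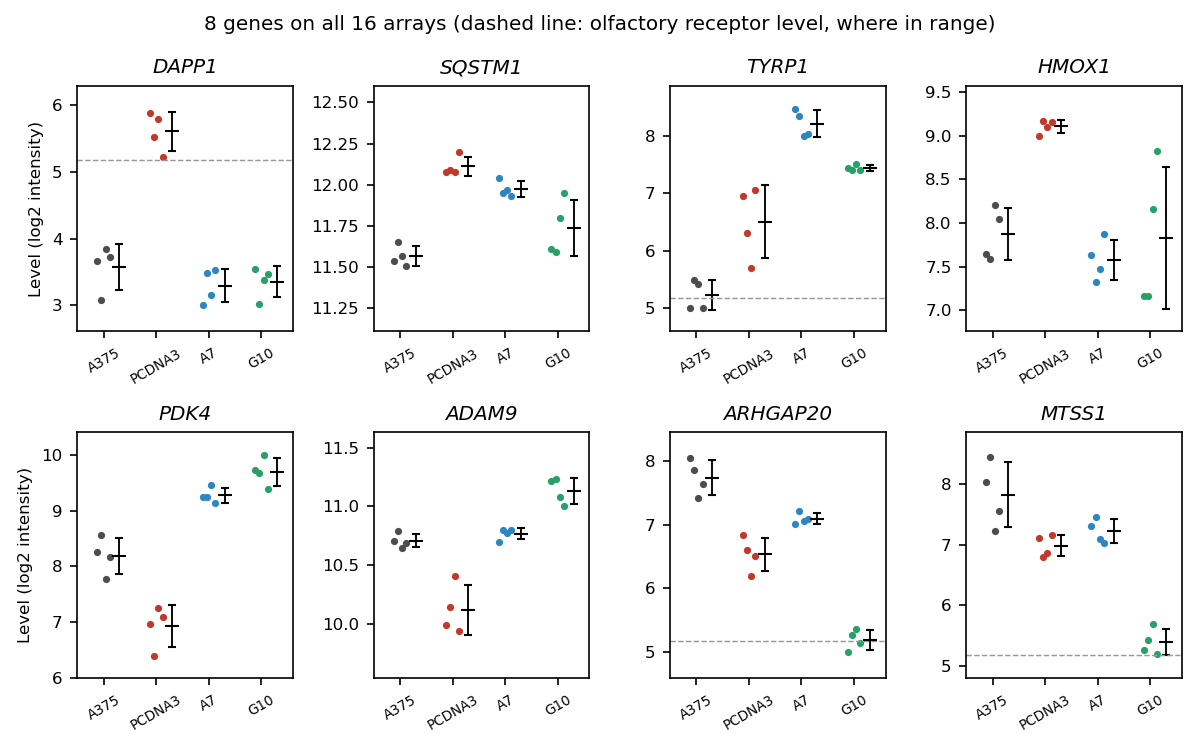
Level (y axis, log2 intensity) of 8 genes on all 16 arrays, 1 point per array, with the mean and SD of each line beside the points (n = 4) and the olfactory receptor level of 5.18 as a dashed line. DAPP1, SQSTM1 and HMOX1 are highest and PDK4 and ADAM9 lowest in PCDNA3 cells, whereas TYRP1 is higher still in A7 and G10 cells and ARHGAP20 and MTSS1 are lower still in G10 cells.

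Several of the largest differences belonged to genes that missed the adjusted limit. KCNJ10, a potassium channel, was 7.27, 7.95, 7.30 and 7.60 on A375 and 5.96, 5.60, 5.70 and 5.47 on PCDNA3 arrays, a difference of -1.85 (95% interval -2.72 to -0.98, limma adjusted p = 0.0748). The SD of KCNJ10 was 0.32 in A375, 0.21 in PCDNA3 and 1.245 in G10 cells (n = 4 each), and the G10 spread enters the error of the fit. On the G10 arrays KCNJ10 was 8.04, 8.31, 5.66 and 6.60. Over the 17 alternatives its limma adjusted p ran from 0.00993 to 0.190. ENPP2, which encodes the lysophosphatidic acid producer autotaxin, differed by -1.76 (means of 9.39 and 7.64), FXYD3, a regulator of the sodium pump, by -1.60 (11.16 and 9.56), GPRC5B by -1.31 (10.75 and 9.43), and the integrin chain ITGA9 by -1.20 (9.60 and 8.40). In the other direction MRGPRX4 differed by 1.56 (9.68 and 11.24) and its close relative MRGPRX3, whose probes may also bind its RNA, by 1.10 (9.12 and 10.22). FAM180A differed by 1.37 (6.93 and 8.30), TNFAIP3, an inhibitor of NF-kappaB, by 1.32 (6.38 and 7.70) and FAM13B by 1.11 (6.74 and 7.85). These genes were picked among those whose groups did not overlap, and not all with large differences are given. TCP11L2 (means of 7.41 and 5.98) and KLHL24 (8.36 and 7.21) were also lower and not called. For ENPP2 the smallest adjusted p over the alternatives was 0.0102 and the largest 0.445. The small nucleolar RNAs SNORD14E and SNORD14C, which are cut from introns of the chaperone gene HSPA8, differed by 1.55 and 1.12, with limma adjusted p values of 0.133 and 0.163.

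Promoters of genes from 3 responses are shown before their values, as examples of the motif by which each response is known. Sequences are those of RefSeq on GRCh38.p14, from 250 bases before to 50 after the start of the gene, 300 in all, read 5′ to 3′ on the strand of the gene. In the hypoxia list, capitals mark ACGTG, the core of the hypoxia response element, which is also part of the E-box CACGTG, and in BNIP3 the match on both strands falls on such an E-box. BNIP3 (chr10:131981874-131982173, minus strand) and DDIT4 (chr10:72273674-72273973, plus strand) hold it.
BNIP3: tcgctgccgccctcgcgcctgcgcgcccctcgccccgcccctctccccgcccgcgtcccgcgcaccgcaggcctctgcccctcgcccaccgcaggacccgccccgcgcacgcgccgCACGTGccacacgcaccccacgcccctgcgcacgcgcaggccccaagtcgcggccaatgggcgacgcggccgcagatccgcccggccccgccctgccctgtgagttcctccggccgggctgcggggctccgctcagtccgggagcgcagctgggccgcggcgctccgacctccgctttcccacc
DDIT4: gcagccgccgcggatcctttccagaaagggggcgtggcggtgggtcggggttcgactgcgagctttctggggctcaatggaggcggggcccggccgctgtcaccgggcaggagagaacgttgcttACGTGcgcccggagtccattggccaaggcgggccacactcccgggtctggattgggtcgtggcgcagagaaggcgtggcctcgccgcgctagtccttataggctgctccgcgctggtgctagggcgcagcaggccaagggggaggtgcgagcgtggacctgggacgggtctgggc
In the interferon list, capitals mark GAAANNGAAA or its reverse complement, the core that interferon-activated factors bind. IFIT5 (chr10:89414318-89414617, plus strand) holds 3 matches and IFIT3 (chr10:89327747-89328046, plus strand) 2, all of them on the opposite strand.
IFIT5: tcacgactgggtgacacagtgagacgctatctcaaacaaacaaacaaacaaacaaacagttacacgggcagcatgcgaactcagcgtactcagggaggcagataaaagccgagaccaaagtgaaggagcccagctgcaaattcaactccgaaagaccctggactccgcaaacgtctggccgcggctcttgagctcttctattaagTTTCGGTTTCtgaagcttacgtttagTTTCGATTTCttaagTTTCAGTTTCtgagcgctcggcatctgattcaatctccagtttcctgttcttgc
IFIT3: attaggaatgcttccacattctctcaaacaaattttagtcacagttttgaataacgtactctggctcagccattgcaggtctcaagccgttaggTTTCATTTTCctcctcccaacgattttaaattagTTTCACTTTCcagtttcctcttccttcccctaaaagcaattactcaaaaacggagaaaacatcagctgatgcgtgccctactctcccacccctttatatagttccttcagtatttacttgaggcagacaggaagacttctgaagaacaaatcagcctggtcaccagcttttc
In the NRF2 list, capitals mark TGACNNNGC or its reverse complement, the core of the antioxidant response element, and GCLM (chr1:93909381-93909680, minus strand) holds 1.
GCLM: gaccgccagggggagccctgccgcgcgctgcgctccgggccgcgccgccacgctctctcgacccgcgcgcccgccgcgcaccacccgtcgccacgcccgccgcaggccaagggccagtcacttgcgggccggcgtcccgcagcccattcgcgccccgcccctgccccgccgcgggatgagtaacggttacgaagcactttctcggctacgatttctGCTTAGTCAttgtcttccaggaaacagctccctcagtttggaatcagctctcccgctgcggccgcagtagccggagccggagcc
The promoters were chosen after the values were seen, from the listed members at an unadjusted p under 0.05 that hold the motif. On both strands, ACGTG was in 13 of the 25 hypoxia promoters found (52%) and in 21.6% of all 27305 promoters, GAAANNGAAA in 17 of 29 interferon promoters (58.6%) and 3.65% of all, and TGACNNNGC in 4 of 17 NRF2 promoters (23.5%) and 13.6% of all. Among the members at an unadjusted p under 0.05 in limma that were counted, 4 of 9 hypoxia, 5 of 10 interferon and 1 of 4 NRF2 promoters held the motif. A match is a description of these letters, not a site of binding or a cause.

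Genes of the hypoxia response were mostly lower in PCDNA3 cells, though none passed the adjusted limit. Of 29 genes, 27 had a difference below 0 and the median was -0.21, against 0.02 for all genes. At an unadjusted p under 0.05 in limma 11 of 29 (37.9%) were lower and 0 higher, against 7.21% and 8.15% of all genes. In 10 every PCDNA3 value lay below the A375 values, as in 4.87% of all clusters. PDK1, the hypoxia-induced pyruvate dehydrogenase kinase, was 9.86, 8.97, 9.15 and 9.49 on A375 and 8.36, 8.28, 8.09 and 8.44 on PCDNA3 arrays, a difference of -1.07 (limma adjusted p = 0.116). The histone demethylase KDM3A was 8.45, 8.56, 8.50 and 8.63 on A375 and 8.02, 8.01, 8.02 and 8.14 on PCDNA3 arrays, a difference of -0.49 (adjusted p = 0.0712 in limma). NDRG1, a stress-induced growth suppressor, differed by -0.46 (10.85 and 10.39), the procollagen hydroxylase P4HA2 by -0.78 (10.15 and 9.37) and BNIP3L, a receptor of mitophagy, by -0.60 (10.07 and 9.47). BNIP3, its relative with the E-box shown above, was 10.45, 9.54, 9.94 and 10.18 on A375 and 9.46, 9.33, 9.37 and 9.27 on PCDNA3 arrays. DDIT4, an inhibitor of the growth kinase mTOR, was 8.82, 7.77, 8.28 and 8.36 on A375 and 7.32, 7.88, 7.56 and 7.62 on PCDNA3 arrays, where the second A375 array lay among the PCDNA3 values. The mean of the 29 genes was 9.74, 9.45, 9.58 and 9.68 on the A375 arrays and 9.31, 9.32, 9.26 and 9.37 on the PCDNA3 arrays. Every PCDNA3 array lay below every A375 array, and A375 replicate 2 was the nearest to them. The mean of the list was 9.61 in A375, 9.31 in PCDNA3, 9.47 in A7 and 9.40 in G10 cells, so both clones also lay below A375. Leaving out each array in turn, the median stayed between -0.28 and -0.16.

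Interferon-stimulated genes leaned the other way, in part through 1 array. Of 38 genes, 32 had a difference above 0 with a median of 0.34, and at an unadjusted p under 0.05 in limma 14 (36.8%) were higher and 0 lower, against 8.15% and 7.21% of all genes, with 0 at the adjusted limit. The mean of the list was 6.03, 6.22, 6.14 and 6.10 on the A375 arrays and 6.34, 6.19, 7.04 and 6.39 on the PCDNA3 arrays. PCDNA3 replicate 3 stood far above the other arrays, and replicate 2 lay within the A375 range. Without PCDNA3 replicate 3 the median was 0.14, with 34 of 38 genes above 0. IFIT3, an antiviral protein with the promoter shown, was 5.61, 6.11, 6.26 and 6.07 on A375 and 6.90, 6.09, 7.93 and 6.72 on PCDNA3 arrays. IFI44 was 4.44, 5.05, 4.77 and 4.75 on A375 and 5.06, 4.92, 7.34 and 5.27 on PCDNA3 arrays, where replicate 3 alone stood clear of the level of unexpressed genes. IFIT5, which also has the motif, was more even, at 7.61, 7.68, 7.92 and 7.83 on A375 and 8.52, 8.13, 8.44 and 8.06 on PCDNA3 arrays (difference 0.53, limma adjusted p = 0.129). SAMD9L, another antiviral factor, was 5.82, 6.15, 6.11 and 6.14 on A375 and 6.73, 6.56, 7.40 and 6.61 on PCDNA3 arrays (difference 0.77, adjusted p = 0.144 in limma). GBP2, an interferon-induced gene that was not on the list, was lower in PCDNA3 cells, though not called. It was 7.30, 7.84, 6.97 and 7.27 on A375 and 6.24, 6.14, 5.76 and 6.36 on PCDNA3 arrays. Its second cluster differed by -0.87 (limma adjusted p = 0.301). The chemokine CCL2 was 7.57 on PCDNA3 replicate 3 and 5.94 to 6.06 on the other PCDNA3 arrays. The 25 genes of inflammation had a median difference of -0.01, with 5 (20%) higher and 0 lower at that unadjusted limit, among them TNFAIP3 and the NF-kappaB inhibitor NFKBIA (8.01 and 8.48).

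Genes under NRF2 were divided. Of 21 genes 14 had a difference above 0, with a median of 0.15, and 5 (23.8%) were higher and 1 (4.76%) lower at an unadjusted p under 0.05 in limma, against 8.15% and 7.21% of all genes. The median was 0.09 without A375 replicate 1 and 0.10 without PCDNA3 replicate 1. HMOX1, the heme oxygenase, was 7.65, 7.59, 8.21 and 8.05 on A375 and 9.0, 9.17, 9.10 and 9.16 on PCDNA3 arrays. The difference of HMOX1 was 1.23 (95% interval 0.63 to 1.84, limma adjusted p = 0.0856), and its highest value on the 12 other arrays was 8.82. GCLM, the modifier subunit of the glutathione-making ligase, was 8.18, 8.06, 8.45 and 8.22 on A375 and 8.80, 8.85, 8.90 and 8.81 on PCDNA3 arrays (difference 0.61, limma adjusted p = 0.116), and OSGIN1, an oxidant-induced growth inhibitor, differed by 0.38. On all 4 PCDNA3 arrays these 3 genes exceeded the 12 other arrays, as 0.586% of all clusters did. The genes were picked by their p on the same PCDNA3 arrays, so this is a description. AKR1C1, an aldo-keto reductase of the same response, differed by -0.49 (9.04 and 8.54).

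**Figure D4:**
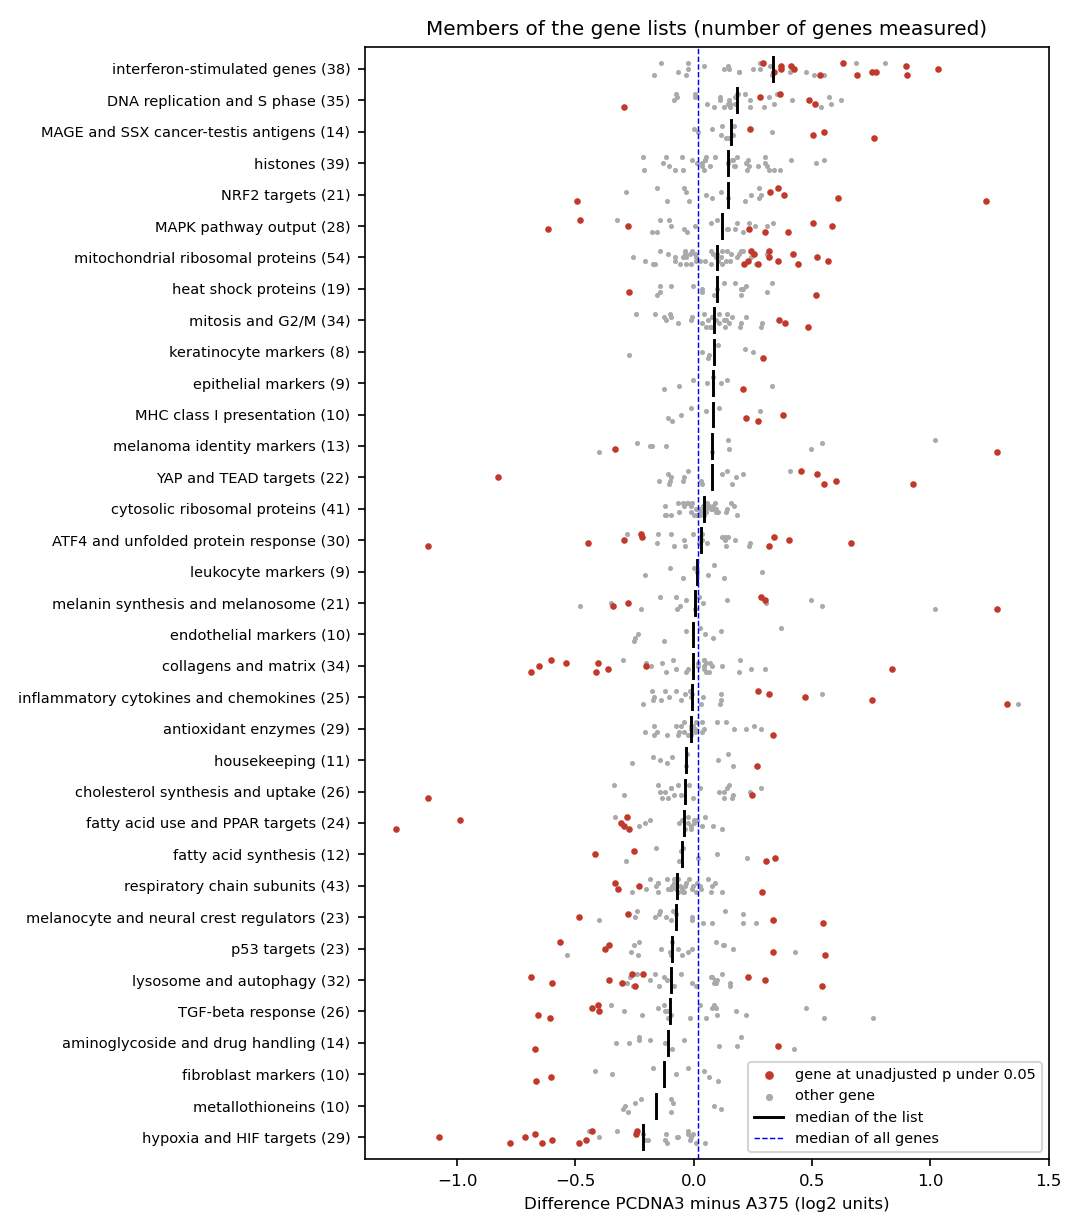
Difference between PCDNA3 and A375 cells (x axis, log2 units) for each measured member of 35 gene lists, ordered by the median of the list (black bar), with genes at an unadjusted p under 0.05 in red and the median of all genes as a dashed line. The interferon list has the highest median, 0.34, the hypoxia list the lowest, -0.21, and the other medians lie between.

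For the lists that follow, the shares of all 18417 genes to read the counts against are again 8.15% higher and 7.21% lower at an unadjusted p under 0.05. The 54 mitochondrial ribosomal proteins had a median difference of 0.10, with 12 (22.2%) higher and 0 lower at an unadjusted p under 0.05 in limma, led by MRPL15 (8.45 and 8.89) and MRPS2 (8.39 and 8.91), whereas the 41 cytosolic ribosomal proteins had 0.04, with 0 at that limit in either direction. Of 35 genes of DNA replication and S phase 31 had a difference above 0, with a median of 0.18, but only 4 (11.4%) were higher and 1 (2.86%) lower at that limit. GINS3, a part of the replicative helicase, was 8.60 in A375 and 9.11 in PCDNA3 cells, and ORC1, of the origin recognition complex, 8.57 and 9.06, while RFC4, of the clamp loader, was the lower one at 9.08 and 8.78. All 14 MAGE and SSX cancer-testis antigens had a difference above 0, with a median of 0.16 and MAGEA10 as the only one at the adjusted limit, while MAGEC2 was 8.80 and 9.35. Related probes of this family share sequence, so its members are not independent. Of 24 genes of fatty acid use 6 (25%) were lower and 0 higher at an unadjusted p under 0.05 in limma. PDK4 fell, as given above, and PPARGC1A, the coactivator of mitochondrial genes, was 7.98 and 6.99, and CPT1A, which brings fatty acids into mitochondria, 8.86 and 8.56. The median of that list was -0.04.

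Against the same 8.15% of all genes higher and 7.21% lower, of 32 genes of lysosome and autophagy 3 (9.38%) were higher and 7 (21.9%) lower, SQSTM1 among the former and GABARAPL1, which sits on autophagosomes (difference -0.60), and WIPI1 (9.79 and 9.10) among the latter. Of 26 genes of the TGF-beta response 5 (19.2%) were lower and 0 higher, among them the signal carrier SMAD3 (9.47 and 8.86) and the ligand BMP2 (6.92 and 6.26). Of 34 collagens and matrix genes 8 (23.5%) were lower and 1 (2.94%) higher, although 17 differences lay above and 17 below 0, with biglycan, BGN, at 7.11 and 6.43 and thrombospondin, THBS1, at 11.11 and 11.94. LUM, at 6.32 and 5.72, is in this list and in that of the fibroblast markers. Genes read out by the MAPK pathway, which BRAF keeps active in A375 cells, went both ways, 5 (17.9%) higher and 3 (10.7%) lower of 28. The phosphatase DUSP6 was 11.03 and 11.42, FOSL1 7.80 and 8.39, and EGR1 8.75 and 8.14. Of 30 genes of ATF4 and the unfolded protein response 4 (13.3%) were higher and 5 (16.7%) lower. VLDLR, which fell, is in this list. The chaperones PDIA4 (11.70 and 11.26) and HSP90B1 (13.06 and 12.76) were on the lower side, and CHAC1 (6.73 and 7.39) on the higher. Of the genes counted in the lists of this paragraph, SQSTM1 and VLDLR alone passed the adjusted limit. Of 14 genes of aminoglycoside and drug handling, which bear on growth in geneticin, 1 was higher and 1 lower (7.14% each), close to the shares of all genes. These were the export pumps ABCC2 (9.76 and 10.12) and ABCB1 (7.38 and 6.71).

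**Figure D5:**
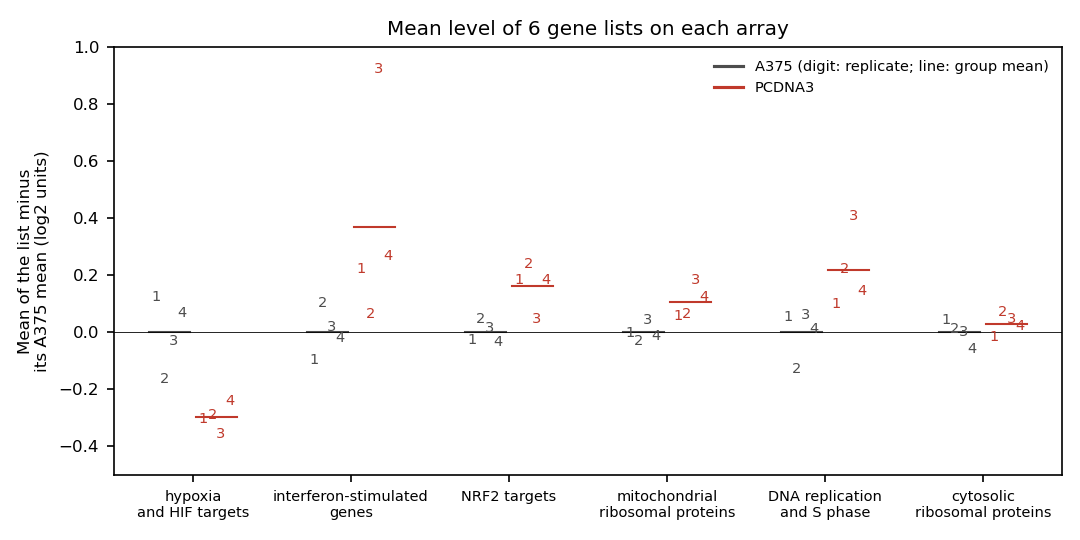
Mean level of 6 gene lists on each array, as the distance from the mean of the 4 A375 arrays (y axis, log2 units), with digits for the replicate number and a line for the mean of each line of cells. For the hypoxia list all PCDNA3 arrays lie below all A375 arrays, and for the interferon list PCDNA3 replicate 3 lies far above the rest.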

How the data were processed

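RNA levels of A375, PCDNA3, A7 and G10 cells were read on Affymetrix Human Gene 1.0 ST arrays, 4 per line. RMA was the summary and normalization that the authors applied, and the log2 intensities they deposited for 33297 transcript clusters were used unchanged. For RMA and limma as the authors ran them, the version is not given in the sources used here. Array medians of the 8 arrays compared lay between 5.89 and 5.97.

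Clusters were named by the array annotation. Of the clusters 19460 had 1 gene symbol, 1754 several and 12083 none, and genes were named only from the first, 18417 genes in all. For lists, the brightest cluster of a gene stood for it. Of all clusters 974 had values identical to another cluster, as did 2 of the 41 called.

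A linear model with 1 mean per line was fitted over the 16 arrays in limma 3.58.1 (R 4.3.3), so that the spread of A7 and G10 enters the error, with eBayes moderation (3.57 prior degrees of freedom). For the contrast PCDNA3 minus A375, the Benjamini-Hochberg adjustment ran over every cluster, and genes were called at an adjusted p under 0.05. The study names lfc limits and p without saying whether p was adjusted. Where 1 mean lay below the olfactory receptor level (5.18), a difference is written as at least the brighter mean minus the dimmer with each array raised to that level. The 7 genes of the study were also tested by exact permutation, two-sided, with 0.0286 as the smallest p possible. The procedure was tested on simulated data. Replicate numbers did not pair A375 with PCDNA3 arrays, since deviations of same-numbered arrays correlated at -0.033 to 0.016. Pairs of A7 and G10 arrays were not checked in this way. Within G10, replicates 1 and 2 correlated at r of 0.994 and 3 and 4 at 0.992, against 0.984 to 0.987 across. Within A7 these values were 0.994 and 0.995, against 0.987 to 0.993 across.

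The named genes were every called gene, the study's genes, and the 15 largest differences in each direction whose groups did not overlap. To these came up to 4 members of each of 36 lists with the smallest p. Values of some of these genes are not given in the text. Some other list members were picked with their values in view. The lists and the rule were chosen with earlier results of these data known. No list was tested as a set. Alternatives were array weights, limma-trend, robust empirical Bayes, quantile normalization once more, centring on array medians, a fit of the 8 arrays alone, filters on clusters, a replicate block, other limits and leaving out each array in turn.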

Additional observations from a re-analysis of the deposited data

Results flagged for a closer look

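Each result here is a gene whose highest or lowest array of a line lay far from the other 3. The gap to the nearest array, as a share of the whole range of the 4, exceeded the 95% critical value of Dixon's test. Of the 292 values tested (146 named genes in 2 lines), 24 did so. Chance alone flags about 1 in 20 groups.

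Among A375 arrays, this held for ROR1 (7.74 on replicate 3, 7.97 to 7.98 on the others, gap 0.962), EGR1 (9.13 on replicate 2, 8.62 to 8.64 on the others, gap 0.953), SAMD9L (5.82 on replicate 1, 6.11 to 6.15 on the others, gap 0.874) and CPT1A (8.94 on replicate 2, 8.82 to 8.83 on the others, gap 0.891). Further such genes were MRPS2 (8.19 on replicate 2, 8.43 to 8.48 on the others, gap 0.831), MYC (8.51 on replicate 1, 7.98 to 8.05 on the others, gap 0.856), STING1 (8.56 on replicate 2, 8.23 to 8.27 on the others, gap 0.871) and XPC (7.68 on replicate 1, 7.53 to 7.54 on the others, gap 0.950). The remaining genes were TAP1 (8.29 on replicate 2, 7.97 to 8.02 on the others, gap 0.843), ORC1 (8.45 on replicate 2, 8.60 to 8.63 on the others, gap 0.833), CAT (9.03 on replicate 2, 8.62 to 8.65 on the others, gap 0.936) and CNTN1 (4.39 on replicate 4, 3.93 to 4.01 on the others, gap 0.839).

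Among PCDNA3 arrays, it was seen in SQSTM1 (12.20 on replicate 4, 12.08 to 12.09 on the others, gap 0.894), MARS2 (9.41 on replicate 4, 9.15 to 9.16 on the others, gap 0.928), KDM3A (8.14 on replicate 4, 8.01 to 8.02 on the others, gap 0.923) and EGR1 (8.39 on replicate 1, 8.03 to 8.07 on the others, gap 0.901). Further such genes were SLAMF7 (7.82 on replicate 2, 8.83 to 8.89 on the others, gap 0.942), FXYD3 (8.95 on replicate 3, 9.74 to 9.80 on the others, gap 0.932), ENPP2 (7.24 on replicate 3, 7.73 to 7.82 on the others, gap 0.837) and CCL2 (7.57 on replicate 3, 5.94 to 6.06 on the others, gap 0.927). The remaining genes were ORC1 (9.23 on replicate 3, 9.0 to 9.01 on the others, gap 0.936), NDUFB5 (10.50 on replicate 2, 10.73 to 10.75 on the others, gap 0.945), CAT (8.71 on replicate 4, 8.51 to 8.53 on the others, gap 0.875) and UCHL1 (7.56 on replicate 2, 6.96 to 7.03 on the others, gap 0.874).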

How the results depend on the processing

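The number of clusters at an adjusted p under 0.05 (41) depended on the fit. It was 431 (234 higher, 197 lower) with only the 8 arrays of both lines, 582 (282 and 300) with array weights, 182 (75 and 107) with clusters above the olfactory receptor level, 234 (90 and 144) with clusters of 1 symbol, 73 (30 and 43) with limma-trend, 63 (44 lower) after a further quantile normalization, 37 (8 higher) with median centring and 320 at an adjusted p under 0.1. Leaving out each array in turn gave 2 to 36 clusters, 1 to 15 higher and 1 to 29 lower. With the replicate number as a block it was 50 (11 higher, 39 lower), and 7 of the 31 called genes no longer passed. The count at a log2 difference of 1 or more and an adjusted p under 0.001 (1) was 0 with the 8 arrays alone and with the replicate block, 2 with clusters of 1 symbol, 37 at an unadjusted p under 0.001 and 0 to 1 without single arrays. The count at a log2 difference of 2 or more and an adjusted p no higher than 1e-04 (0) was 1 with clusters of 1 symbol, 1 at an unadjusted p of 1e-04 or less, 1 at an adjusted p under 0.001 and 0 to 1 without single arrays. The cause of these shifts was not tested, apart from the fewer clusters or arrays in the settings that leave some out. The count at an unadjusted p under 0.05 (4198) ran from 3070 to 5529 over all of these fits, and the percent of clusters with an interval within 1 log2 unit (94.6) from 93.0 to 97.5. No named gene and no called value changed its sign in any fit. Of the 31 called genes 2 passed in all 17 fits. Without A375 replicate 2, 2 passed, and without A375 replicate 3, 25 did.

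With 4 arrays per line the typical standard error of a difference was 0.13 log2 units. The smallest difference that was called was 0.40, and larger ones, up to 1.91 for SLAMF7 among those named, did not pass. Levels near that of the olfactory receptors bound no difference from below.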
